A study of Mus musculus with 12 samples.

Results

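The regions described here are the accessible sites near gene boundaries that were deposited as specific to Runx1-deficient myoblasts. They were chosen from the 2607 peaks of the list specific to knockout (KO) cells as those whose centre was at most 1 kb from a gene end. A gene end here means the first or the last base of a gene in the RefSeq table of GRCm38, so both promoters and the downstream boundaries of genes were included. The rule kept 344 peaks, 13.2% of the KO specific peaks (95% Wilson interval 12 to 14.5%, counting error only). Between them these peaks lay near an end of 398 genes.

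The assay was ATAC-seq, which maps accessible chromatin, and the cells were C2C12, an established line of mouse myoblasts. These precursors of muscle divide while serum is plentiful and join into multinucleated myotubes in low serum. The series holds 12 samples in 4 groups of 3. These are wild-type (WT) and Runx1KO cells at day 0 in growth medium, with 20% fetal bovine serum, and both genotypes at day 2 in differentiation medium. The labels describe the growth medium cultures as near confluency at collection, and they do not say how the knockout was made or whether the KO cells came from 1 clone. The lists analysed here cover growth medium, and the day 2 samples were not analysed here. All names in the KO list carry the label of the KO replicate 1 library and all names in the WT list that of the WT replicate 1 library, so each value below comes from 1 library per genotype and has no replicate error.

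In ATAC-seq the Tn5 transposase inserts adapters into DNA that is not covered by nucleosomes, and a peak marks a site where such insertions accumulate in a population of cells. A higher peak can mean that the site is open in more cells or more open in each cell, and these cannot be told apart. Promoters of genes that are in use in a cell usually lie in a nucleosome-depleted stretch around the start site, and CpG-rich promoters are open in most cell types. RUNX1 is a DNA-binding transcription factor of the Runt family that acts as an activator or a repressor, binds next to ETS and AP-1 factors at many sites, and is expressed in proliferating and regenerating myoblasts. The question that these lists address is which sites are open in cells without RUNX1 and not called in cells with it.

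Promoter sequences are printed first for 5 genes whose start lay beside one of the highest of these peaks. They differ in base composition, and Ctla2a and Ctla2b hold a motif in common. All 5 had a CpG ratio below the median of 0.703 over the 117 such windows in KO specific peaks, so they do not stand for the whole set. Each is the 250 bases before the start site, 5′ to 3′ on the strand of the gene, from RefSeq promoters of GRCm38.p6. Capitals mark matches, on either strand, to the motifs searched. These were TGANTCA for AP-1 factors, TGTGGT for RUNX factors, CCGGAA or its variant GGAAGT for ETS factors, GGGCGG for the GC box, CAGCTG for the E-box of myogenic factors, TATAAA for the TATA box, and the letters of its own name for the CCAAT box. Both ETS strings can overlap by 4 bases, and no motif contains another. In the Kidins220 window a GC box and a RUNX match, both on the reverse strand, adjoin without overlap. A match is a string of letters and was not tested as a binding site. The window of Ano3, beside another of the highest peaks (−log10 q 22.8), held no match and is not printed. That of the lncRNA gene 6430590A10Rik (22.3) is not printed either. Kidins220 is the only printed window with a RUNX match, which 9.40% of the 117 windows hold.
Ctla2a, chr13:60936626-60936875, minus strand: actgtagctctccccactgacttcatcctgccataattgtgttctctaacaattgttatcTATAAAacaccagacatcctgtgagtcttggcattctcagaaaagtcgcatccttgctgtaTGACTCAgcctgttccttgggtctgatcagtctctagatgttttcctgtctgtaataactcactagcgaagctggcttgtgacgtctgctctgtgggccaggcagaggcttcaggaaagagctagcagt
Ctla2b, chr13:60897448-60897697, minus strand: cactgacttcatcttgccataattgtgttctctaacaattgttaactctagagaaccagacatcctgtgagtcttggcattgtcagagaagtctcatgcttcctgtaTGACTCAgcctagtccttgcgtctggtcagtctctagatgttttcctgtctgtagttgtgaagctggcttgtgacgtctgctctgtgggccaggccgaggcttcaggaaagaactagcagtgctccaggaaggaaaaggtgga
B3galt1, chr2:67565439-67565688, plus strand: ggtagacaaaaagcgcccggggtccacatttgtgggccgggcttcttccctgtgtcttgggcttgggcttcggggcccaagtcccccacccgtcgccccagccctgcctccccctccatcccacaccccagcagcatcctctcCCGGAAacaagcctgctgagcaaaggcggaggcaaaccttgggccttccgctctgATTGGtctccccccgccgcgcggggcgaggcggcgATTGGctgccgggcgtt
Col11a1, chr3:114030290-114030539, plus strand: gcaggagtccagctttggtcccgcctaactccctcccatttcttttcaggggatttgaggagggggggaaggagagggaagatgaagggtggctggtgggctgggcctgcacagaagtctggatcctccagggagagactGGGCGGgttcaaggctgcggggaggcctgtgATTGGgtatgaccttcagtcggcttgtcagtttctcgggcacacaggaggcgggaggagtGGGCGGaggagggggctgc
Kidins220, chr12:24974682-24974931, plus strand: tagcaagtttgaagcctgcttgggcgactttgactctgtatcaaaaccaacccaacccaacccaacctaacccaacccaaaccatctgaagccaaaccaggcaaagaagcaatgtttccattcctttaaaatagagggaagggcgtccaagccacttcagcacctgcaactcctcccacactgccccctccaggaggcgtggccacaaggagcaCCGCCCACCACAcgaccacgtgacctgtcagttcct

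The Ctla2a and Ctla2b windows had a GC content of 46.8% and 48.0%, with 0.220 and 0.209 of the CpG dinucleotides that this base composition would give. The 300-base windows of both genes were 79.5% identical, with 256 identical columns of 322 aligned, and both held the AP-1 letters TGACTCA. The B3galt1 window was CpG rich, with a GC content of 68.0% and a CpG ratio of 0.633. The Col11a1 and Kidins220 windows were GC rich with few CpGs, at ratios of 0.327 and 0.366. The peaks covered all 250 printed bases for Ctla2a, B3galt1 and Col11a1, 227 bases for Ctla2b and 87 bases for Kidins220.

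KO specific peaks were a smaller share of the peaks near gene ends than of those elsewhere. Near a gene end, 344 of 8915 KO peaks were KO specific (3.86%, 95% Wilson interval 3.48 to 4.28%). The share was 11.4% elsewhere in genes (1308 of 11475), 14.1% between genes (955 of 6797) and 9.59% over all 27187 KO peaks. The intervals of the 3 places did not overlap. Low peaks, under the median −log10 q of the whole KO list (17.6), gave the same order, with 8.94% near gene ends, 19.5% elsewhere in genes and 23.3% between genes. Here and in the comparisons of low peaks below, low peaks were not matched for height. A difference by place apart from peak height was therefore not tested.

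Among the peaks near gene ends, the start of a gene was the place with the lowest share. The RefSeq promoter table gave the strand of the nearest gene for 228 of the 344 KO specific peaks. Of these, 175 (76.8%, 70.9 to 81.8%) lay at the start and 53 at the other end, whereas 93.0% (92.4 to 93.6%) of the shared peaks with a known strand lay at the start. Shared peaks here are the KO peaks that the deposited lists do not put among the KO specific ones. Put as a share of all KO peaks at each place, 2.74% at starts (175 of 6378) and 10.2% at other ends (53 of 518) were KO specific, and 5.75% where the strand was unknown (116 of 2019). Within low peaks these shares were 6.77% at starts and 17% at other ends, and within the peaks at or above the median they were 0.254% and 1.74%, from 10 and 4 KO specific peaks. The difference was present within protein-coding genes, at 2.4% at starts and 8.82% at other ends, and within long noncoding RNA (lncRNA) genes, at 5.16% and 11.8%, where the intervals of 3.83 to 6.93% and 8.33 to 16.4% also did not overlap. Over all gene types, the interval at other ends, 7.91 to 13.1%, held the 9.59% of all KO peaks.

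The type of gene differed as well. Protein-coding genes were the nearest gene of 213 KO specific peaks (61.9%, 56.7 to 66.9%), and of 81.6% of shared peaks near gene ends. The corresponding shares were 26.2% and 14.2% for lncRNA genes and 6.40% and 1.37% for pseudogenes. Of all KO peaks nearest a protein-coding gene 2.96% were KO specific, against 6.88% for lncRNA genes (90 of 1309) and 15.8% for pseudogenes (22 of 139, interval 10.7 to 22.8%). Within low peaks the order was the same, at 7.31%, 13.1% and 24.1%, the last near the 23.3% of low peaks between genes. The pseudogene interval over all peaks held the 11.4% elsewhere in genes and the 14.1% between genes. Small RNA genes were too few for a narrow interval: 7 of 96 peaks nearest a tRNA gene (7.29%), 5 of 14 nearest a snoRNA gene and 2 of 55 nearest a microRNA gene (3.64%) were KO specific. The snoRNA share of 35.7% had an interval of 16.3 to 61.2%.

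**Figure D1:**
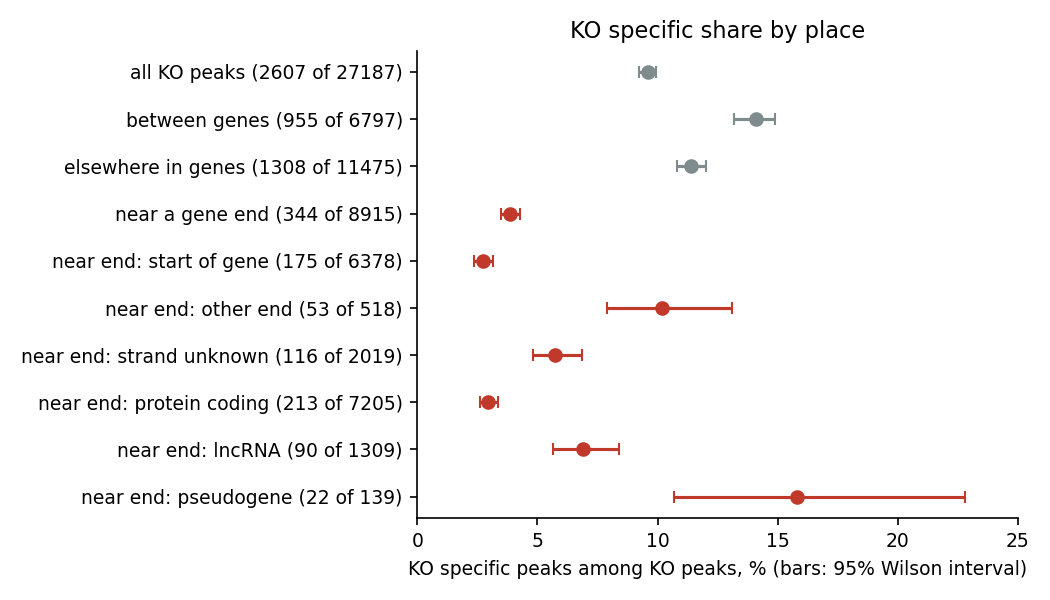
Share of KO peaks that were KO specific, in percent, by place and, for peaks near a gene end, by the end and type of the nearest gene; points are shares, bars are 95% Wilson intervals and the labels give the counts. Peaks at gene starts (2.74%) and nearest protein-coding genes (2.96%) had the lowest shares, and peaks nearest pseudogenes (15.8%) the highest of the classes plotted. The pseudogene interval, 10.7 to 22.8%, held the share between genes (14.1%).

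The KO specific peaks near gene ends were low and narrow peaks in their own list. Their fold was read as a ratio over local background and is the authors' own value for each peak. It ranged from 2.83 to 12.7 with a median of 5.76 (median interval 5.54 to 6.10). The −log10 q ranged from 1.99 to 27 with a median of 7.77, and the width from 140 to 1028 bp with a median of 288 bp. Shared KO peaks near gene ends had medians of 9.81 for fold, 21.4 for −log10 q and 521 bp for width. Only 21 of the 344 (6.10%) reached the median −log10 q of the KO list, against 61.6% of the shared peaks.

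Against KO specific peaks elsewhere, those near gene ends were a little lower in fold and a little wider. The median fold was 6.22 elsewhere in genes and 6.67 between genes, and the median width 250.5 bp and 261 bp. The interval of the median fold near gene ends lay below that between genes, 6.50 to 6.82, and touched that elsewhere in genes, 6.07 to 6.38. The interval of the median width, 270 to 311 bp, lay above those of both other places. The median interval of −log10 q near gene ends, 7.22 to 8.44, overlapped that elsewhere in genes, 7.84 to 8.47, and lay below that between genes, 8.47 to 9.07. By gene type, the median −log10 q was 7.66 for protein-coding, 7.81 for lncRNA and 10.2 for pseudogene ends, and the interval of the 22 pseudogene peaks, 7.65 to 14.8, overlapped those of both other types.

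**Figure D2:**
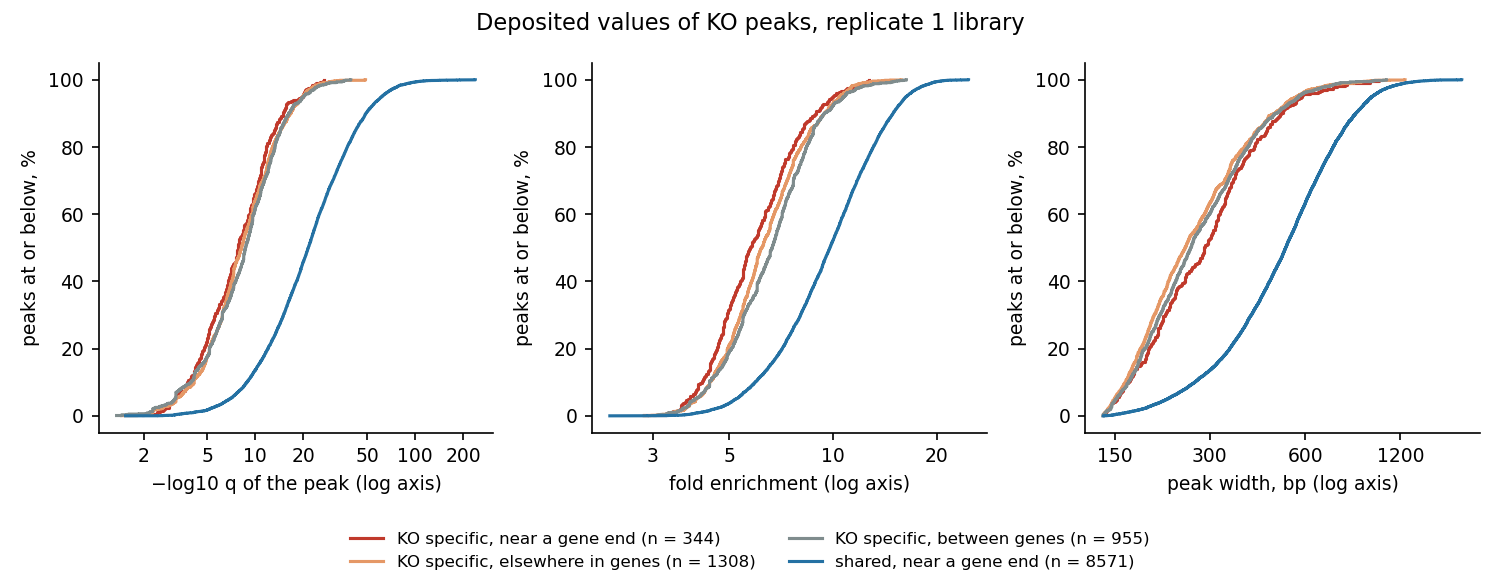
Cumulative share of KO peaks, in percent, by the deposited −log10 q (left), the deposited fold (middle) and the width in bp (right), all on log axes, for 344 KO specific peaks near a gene end, 1308 elsewhere in genes, 955 between genes and 8571 shared peaks near a gene end. The 3 KO specific classes run close together, and all lie to the left of the shared peaks, whose median −log10 q was 21.4 against 7.77.

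Peaks at gene starts were centred less tightly on the start site than shared peaks. For 177 KO specific peaks a start site of the RefSeq promoter table, which includes alternative starts, lay within 1 kb of the centre. Of these, 110 (62.1%, 54.8 to 69.0%) were centred within 250 bp of it, against 83.6% (82.7 to 84.5%) of shared peaks. On the upstream side lay 47.5% of the KO specific and 51.9% of the shared peaks. Between 250 and 1000 bp downstream of the start, each of the 3 bins of 250 bp held 7.91% of the KO specific peaks, and 4.03%, 2.05% and 1.31% of the shared peaks.

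**Figure D3:**
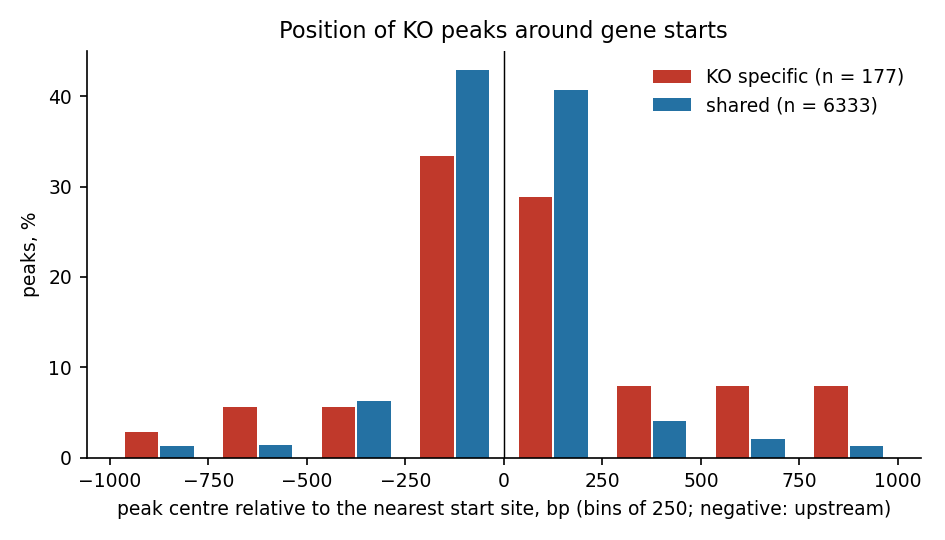
Position of the peak centre relative to the nearest start site, in bins of 250 bp with upstream negative, as a percentage of 177 KO specific and 6333 shared KO peaks within 1 kb of a start site. KO specific peaks had 33.3% and 28.8% in the bins beside the start site, where shared peaks had 42.9% and 40.7%.

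Protein-coding genes with a KO specific peak at an end had shared peaks there less often than protein-coding genes in general. Of the 21627 protein-coding genes of the table, 249 (1.15%) had a KO specific peak within 1 kb of an end. No peak of the deposited WT list lay within 1 kb of either end for 180 of those 249 (72.3%), a count that depends in part on how the specific list was made. A shared peak at an end was present at 55 of the 249 genes (22.1%), and at 37.9% of all protein-coding genes. In other words, 0.671% of the protein-coding genes with a shared end peak and 1.44% of those without one had a KO specific peak at an end. Where a shared peak covers a gene end, no KO specific peak can lie in the same place. These shares therefore also depend in part on how the lists were made. A WT specific peak was also present at 16 of the 249 genes (6.43%), close to the 6.15% of all protein-coding genes. Over all gene types, 0.803% of 49550 genes had a KO specific peak at an end.

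Of the 53 peaks at the other end of a gene, 20 (37.7%, 25.9 to 51.2%) lay on a gene whose own start had a shared peak. For the 24 at a protein-coding gene this was 15 (62.5%, 42.7 to 78.8%), against 37.4% of all protein-coding genes with a known strand. These included Pfkm, the muscle form of phosphofructokinase, with a peak of −log10 q 12.2 centred 813.5 bp from its downstream end. Ticam1, an adaptor of Toll-like receptor signalling, had a peak of 19.3 at 128 bp from its downstream end, and Csf1, a macrophage growth factor, one of 8.83 at 294.5 bp. Unc45b, a chaperone of muscle myosin, had a peak of 8.31 at 95 bp from its downstream end and no shared peak at its start.

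The 12 peaks with the highest −log10 q near gene ends lay beside 5 lncRNA genes, 4 protein-coding genes, 2 pseudogenes and 1 microRNA gene. The highest, at chr8:90520181-90520484, had a −log10 q of 27 and a fold of 9.19, 490 bp from the downstream end of the lncRNA gene Gm39220. It was followed by a peak of 26.5 near the pseudogene Gm4800. The other lncRNA genes were Gm52864 (24.2), Gm34240 (23.6), 6430590A10Rik (22.3) and Gm44505 (20.5), the other pseudogene was Gm17977 (22.6) and the microRNA gene was Mir466q (20.8). Gm17977 also had the most distant WT peak of these 12, at 3900410 bp.

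The 4 protein-coding genes among them were Ctla2a, Ano3, B3galt1 and Ccdc32. Ctla2a, which encodes a small inhibitor of cysteine proteases, had a peak at chr13:60936574-60936876 with a fold of 12.7, the highest fold near a gene end, and a −log10 q of 25.5. Its neighbour Ctla2b, of the same family, had a second KO specific peak at chr13:60897471-60897935 with a fold of 10.9 and a −log10 q of 20.3. The nearest WT peaks were 481124 and 442021 bp away. The treatment of reads that map to more than 1 place, which can affect related genes such as this pair, is not given in the sources used here.

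Ano3, a membrane protein of the anoctamin family, had a peak at chr2:110950100-110950530 with a fold of 12.1 and a −log10 q of 22.8, centred 76.5 bp from its start. Its nearest WT peak was 721521 bp away. B3galt1, a galactosyltransferase of glycan synthesis, had the widest of all these peaks, 1028 bp at chr2:67565234-67566261, with a fold of 10.2 and a WT peak no nearer than 116989 bp. The next widest were 965 bp at Senp6, a protease that removes SUMO chains, and 964 bp at Uimc1, a ubiquitin-binding protein of the DNA damage response. Both were much lower peaks, with −log10 q of 5.77 and 4.59. Ccdc32 had a narrow peak of 140 bp with a fold of 11 and a −log10 q of 20.4.

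Collagen genes were represented by Col11a1 and Col8a1, 2 of the 30 collagen and basement membrane genes listed (6.67%, where 1.15% of protein-coding genes had such a peak). Col11a1, a chain of a fibrillar collagen of cartilage, had a peak at chr3:114030184-114030595 with a fold of 10.4 and a −log10 q of 19.9 at its start, and no WT peak within 100 kb, the nearest being 119612 bp away. Col8a1, a short-chain collagen of vessel walls, had a lower peak, with a fold of 5.19, 683 bp from its start. Among the 8 smooth muscle genes listed, Tagln, which encodes an actin-binding protein, had a peak with a fold of 4.59 and a −log10 q of 4.85. Actg2, the smooth muscle gamma-actin, was not on that list. It was 1 of 2 genes that were the nearest gene of 2 KO specific peaks, with folds of 5.36 and 3.68. The other was the lncRNA gene 2310001H17Rik, with a peak of fold 6.48 at its start and one of 4.72 at its other end. A count of 1 or 2 genes per list gives no more than the presence of these peaks.

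Of the lists of skeletal muscle genes, none of 42 muscle structure and fusion genes had a KO specific peak at an end, while 7 of them had a shared peak there. Among 31 myogenic regulators 15 had a shared end peak and 1, Mef2b of the MEF2 family, had a KO specific peak in reach. That peak (−log10 q 5.34) lay nearest the overlapping gene Gm45929. None of 35 genes for RUNX, ETS, TEAD and AP-1 factors, 32 cell cycle genes and 44 growth factor and Wnt signalling genes had one, and 23, 20 and 19 of them had a shared end peak. With 1.15% of protein-coding genes carrying such a peak, the background share gives less than 1 gene for each of these lists, so a count of 0 does not set them apart. Of the larger families, 9 of 416 genes with a zinc finger symbol had one (2.16%), 4 of 384 solute carriers (1.04%) and 1 of 1428 olfactory receptor genes (0.0700%).

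A few lists were added after the values were seen, and their counts support nothing by themselves. Of all protein-coding genes 1.15% had a KO specific peak at an end. Polycomb repressive complex 1, which places ubiquitin on histone H2A and compacts chromatin, had 4 of 18 subunit genes with a KO specific end peak: Cbx2, Ring1, Pcgf5 and Pcgf6. All 4 peaks were low, with −log10 q of 8.42, 7.66, 5.57 and 4.39, and that of Pcgf6 lay 67.0 bp from a WT peak. Mitochondrial complex I had 3 of 54 subunit genes, Ndufs4 at −log10 q 13.3, Ndufb10 at 6.84 and Ndufa1, which shares a peak of 5.58 with Rnf113a1. Of 10 ETS factors outside the first list, 2 had a KO specific end peak. Erf, a repressor, had a peak of 13.5 at its start and Elf5, an epithelial factor, one of 9.04.

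Secreted and signalling genes with a KO specific peak at their start, also picked after the values were seen, included Tnfaip6, a hyaluronan-binding protein of inflamed tissue. Its peak had a fold of 10.4 and a −log10 q of 15.9, centred 5.50 bp from the start. Epha2, a receptor for ephrins, had a peak with a −log10 q of 12.8. Fzd9, a Wnt receptor, had one of 10.8 and Areg, a ligand of the EGF receptor, one of 10.1. Values were 9.29 for Fbln5, an elastic fibre protein, 8.73 for the matrix metalloprotease gene Mmp10 and 5.06 for Nppb, which encodes a natriuretic peptide. Nr4a1, an early response nuclear receptor, had a peak of 9.77, 172.5 bp from the start of its longest extent in the table.

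The tissue label was checked with gene ends that had any peak. A shared peak at an end was found for 4 of 10 myoblast markers, 7 of 42 muscle structure and fusion genes and 3 of 8 smooth muscle genes. Over all protein-coding genes the share was 37.9%. The myoblast and smooth muscle shares were both near that background and the muscle structure share was below it. These counts therefore do not set myoblast genes apart. Among the myoblast markers Myod1, a master regulator of myogenesis, Des, the muscle intermediate filament, and Chrna1, a subunit of the muscle acetylcholine receptor, had one. Of 15 ubiquitous genes 12 had a shared peak, against 0 of 9 endothelial, 1 of 20 blood cell, 1 of 10 epithelial and 3 of 20 neuronal genes. The myoblast, ubiquitous, endothelial, blood cell, epithelial and neuronal lists held no KO specific end peak. Runx1 itself had 1 KO peak and 1 WT peak within 1 kb of its ends and no KO specific one there. A peak at a gene end gives no information on a deletion inside the gene, so it does not check the knockout.

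In the 300-base promoter windows, from 250 bases before to 50 bases after the start, base composition differed between KO specific and shared peaks. A window was used where at least 100 bp of it lay in a peak, which gave 117 windows in 106 KO specific peaks. A CpG-rich window, with a GC content of at least 50% and a CpG ratio of at least 0.6, was found in 74 of 117 (63.2%, 54.2 to 71.4%), in 80.7% (79.7 to 81.6%) of 6769 windows in shared peaks and in 34.1% of all 27025 promoters of the table. The other way round, 1.34% of the CpG-rich and 3.19% (2.37 to 4.27%) of the other windows in a KO peak were in a KO specific one. Among low peaks alone, 66.4% (57.1 to 74.5%) of 110 KO specific and 78.1% (76.3 to 79.7%) of 2188 shared windows were CpG rich.

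Every window was counted as separate here. Of the 7 motifs, the CCAAT box, the AP-1 letters and, barely, the GC box had intervals that did not overlap between KO specific and shared windows. The RUNX letters TGTGGT were in 12% of the KO specific windows, 12.1% of the shared windows and 16.9% of all promoters. The AP-1 letters TGANTCA were in 12 of 117 windows (10.3%, 5.96 to 17.1%), in 4.71% (4.23 to 5.24%) of the shared windows and in 7.93% of all promoters. Among low peaks they were in 9.09% (5.01 to 15.9%) of the KO specific against 3.93% (3.19 to 4.83%) of the shared windows. The windows of C8g and Fbxw5 hold the same match, and those of Ctla2a and Ctla2b are related sequences. The intervals count these windows as separate, and the share with each pair counted once was not computed. Whether the AP-1 intervals would then still lie apart is therefore not known. Among low peaks the bounds of 5.01% and 4.83% nearly met. The CCAAT box was in 26.5% (19.3 to 35.1%) of the KO specific windows, 43.5% of the shared windows and 37.9% of all promoters. Among low peaks alone it was in 26.4% (19.0 to 35.3%) of the KO specific and 29.3% (27.4 to 31.2%) of the shared windows. These intervals overlapped, but the low peaks were not matched for height. The GC box intervals also overlapped among low peaks, at 62.7% (53.4 to 71.2%) and 68.9% (66.9 to 70.8%). The ETS letters were in 41.9%, 47.8% and 32.6% of the KO specific, shared and all windows, the GC box in 61.5% (52.5 to 69.9%), 71.1% (70.0 to 72.1%) and 35.9%, the E-box in 12.8%, 13.9% and 16.1% and the TATA box in 7.69%, 5.61% and 14.2%.

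**Figure D4:**
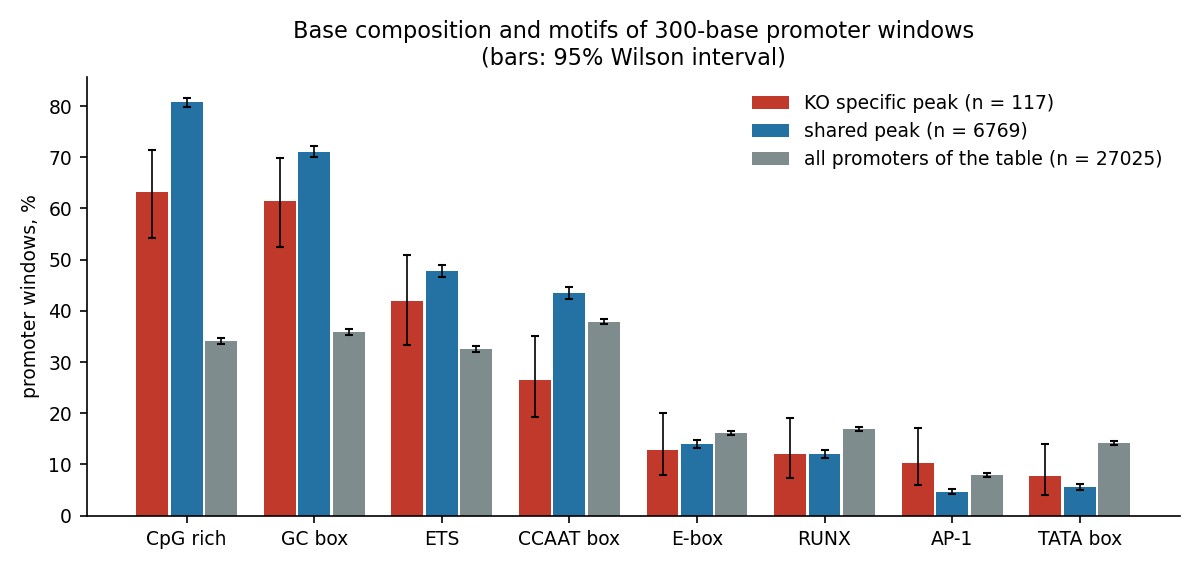
Share of 300-base promoter windows, in percent, that were CpG rich or held a motif, for 117 windows in KO specific peaks, 6769 in shared KO peaks and all 27025 promoters of the table; bars are shares and error bars 95% Wilson intervals. The interval of the KO specific windows lay apart from that of the shared windows for CpG-rich windows (63.2% against 80.7%), the CCAAT box (26.5% against 43.5%), the GC box (61.5% against 71.1%) and the AP-1 letters (10.3% against 4.71%). Intervals count windows as separate, although the 117 windows lay in 106 peaks. Whether the AP-1 intervals would lie apart with related windows counted once was not computed.

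The AP-1 matches upstream of the start were few and can be listed by place. There were 12 distinct matches in 11 peaks, and all lay inside the peak. The window of C8g and that of Fbxw5, which face away from each other, hold the same match, and the windows of Gm13986 and Rufy4 lie in peaks whose nearest genes were Thbs1 and Tns1. Besides the Ctla2 pair above, the peaks with the highest fold among them were at Tnfaip6 (10.4), Gm40007 (9.97) and Mmp10 (6.87), and the matches are shown with 10 bases on each side to compare the surrounding letters. They lay 142, 199 and 63 bases before the start.
Gm40007, chr2:172276396-172276422, minus strand: atgtctccgaTGAGTCAtttcctcagt
Tnfaip6, chr2:52037961-52037987, plus strand: ccaatgcaaaTGAGTCAgagggcttgc
Mmp10, chr9:7502269-7502295, plus strand: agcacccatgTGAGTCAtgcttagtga

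On the strand of the gene all 3 read TGAGTCA and both Ctla2 promoters read TGACTCA. These are the same letters read on opposite strands, so they differ in orientation only. The RUNX letters gave 14 matches upstream of 11 starts, of which 11 matches at 9 genes overlapped the peak. All of these lay fully inside it except the match at Rffl, which reached past the edge of the peak. St8sia4, a polysialyltransferase, and Ttc5 had 2 such matches each. Cxcr6, a chemokine receptor, had 1 match 10 bases before its start in a peak of −log10 q 8.52.

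WT peaks were nearer to the KO specific peaks at gene ends than to those elsewhere. A WT peak lay within 1 kb of the peak edge for 50 of the 344 (14.5%, 11.2 to 18.7%), against 7.11% (5.84 to 8.63%) elsewhere in genes and 4.29% (3.18 to 5.77%) between genes. The median distance was 10321 bp, against 15048.5 and 20937 bp. At gene starts a WT peak lay within 1 kb of 30 of 175 (17.1%), and at other ends of 2 of 53 (3.77%, 1.04 to 12.8%). Shared KO peaks were also nearer, within 1 kb of 10.5%, 5.05% and 2.62% of the KO specific peaks at the 3 places, and the part of this general density of peaks in the distances was not tested. Of the 50 nearby WT peaks, 15 were themselves in the WT specific list.

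The closest pairs showed 2 separate calls that nearly touched. At Chmp7, a subunit of the membrane-remodelling ESCRT machinery, the KO peak of −log10 q 3.13 ended 1 bp from a WT peak of 24.9. At D6Wsu163e the distance was 13 bp, with the lowest KO value near any gene end, 1.99, beside a WT peak of 28.8. At Vegfa, the angiogenic growth factor, a KO peak of fold 3.64 and 737 bp lay 18 bp from a WT peak of fold 3.83. Fold and −log10 q depend on the depth of each library, so KO and WT values are given side by side without a ratio. Over the 50 pairs the KO peaks had a median fold of 4.63 (4.39 to 5.07), lower than the 6.05 (5.68 to 6.37) of the 294 without a WT peak within 1 kb.

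At the far end, 176 of the 344 peaks had no WT peak within 10 kb and 32 had none within 100 kb. At least 1 number was missing from the WT peak numbering beside 31 of those 32. Protein-coding genes were nearest to 15 of those 32, among them Ctla2a, Ctla2b, Ano3, B3galt1, Col11a1, St8sia4 and Sv2b, a synaptic vesicle protein.

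**Figure D5:**
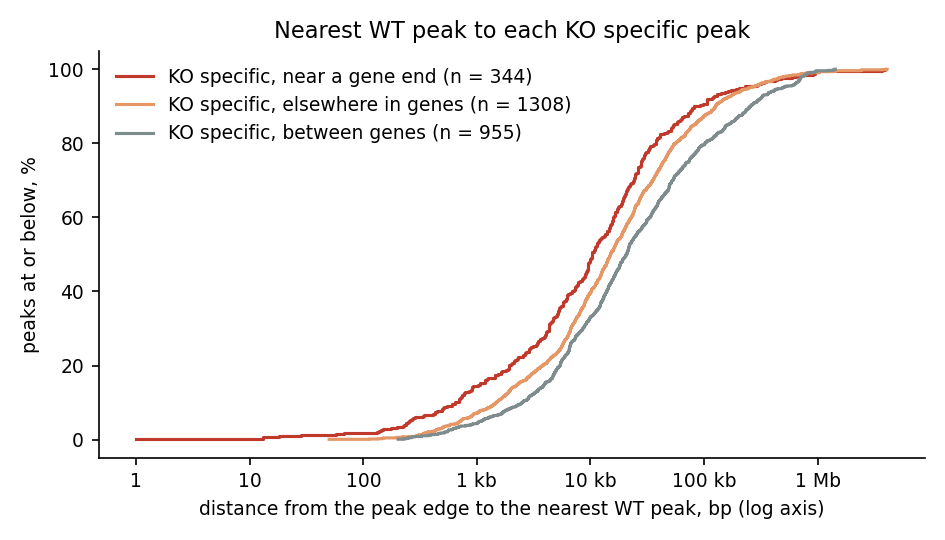
Cumulative share of KO specific peaks, in percent, by the distance in bp on a log axis from the peak edge to the nearest WT peak, for 344 peaks near a gene end, 1308 elsewhere in genes and 955 between genes. The line for gene ends lies to the left up to about 100 kb, with medians of 10321, 15048.5 and 20937 bp.

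The numbering of the WT peaks bears on how far absence from the WT list can be read. Peak numbers rise along each chromosome, and between the WT peaks on either side of a KO specific peak near a gene end at least 1 number was missing for 294 of 343 (85.7%). A missing number may stand for a WT call removed before deposit, a reading that was not tested, since the rule of removal is not stated. The share was 86.7% elsewhere in genes and 88.9% between genes. The median stretch between the neighbouring WT peaks was 64479 bp, and where in it any removed call lay is unknown. For 49 of the 343 no number was missing, and 36 of these had no WT peak within 1 kb. The highest of the 49 was Ano3, and the only one above the median −log10 q of the KO list. Erf (−log10 q 13.5), Epha2 (12.8), Nr4a1 (9.77) and Ring1 (7.66) were also among them. Ctla2a, Ctla2b and Col11a1 each had 4 missing numbers and B3galt1 had 10.

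The limit of 1 kb divided peaks with similar values. Just inside it were peaks near Gm33471, Gm30188 and Tdrd7, at 980.5, 986.5 and 999 bp from a gene end, with −log10 q of 7.78, 3.72 and 8.99. Just outside were peaks near Gm25697, Gm13749 and 5430403N17Rik, at 1004.5, 1007 and 1008.5 bp, with −log10 q of 7.62, 12.2 and 5.14. By chromosome, 11 had 30 of the peaks, 9 had 28 and 2 had 25, and the X chromosome had 7. As a share of the KO peaks near gene ends this ranged from 2.60% on chromosome 3 to 6.25% on chromosome 9.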

How the data were processed

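The 12 samples of the labels fall into 4 groups of 3, of which the growth medium peak lists were used. The lists have no header and the layout of a narrowPeak file. By that layout, column 7 was read as the deposited fold (ratio) over local background, and column 9 as the deposited −log10 q. The columns carry no label of their own. Both are the authors' own values of the replicate 1 library of each genotype. Coordinates are of mm10, per the submitters' processing notes, the same sequence as GRCm38. The aligner, the peak caller, the Tn5 offset, duplicate handling and the rules for shared and specific lists are not given in the sources used here. Read depth is unknown, so no depth was corrected for and no fold between genotypes was computed. Whether replicates 2 and 3 entered any filter is not stated.

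Peak centres were set against the first and last base of 49550 genes of the RefSeq GRCm38.p6 table, and the nearest end was kept. 56 of the 344 peaks had at least 2 genes in reach. Strand came from the RefSeq promoter table, which holds 27025 genes, 54.1% of all and 79.9% of the protein-coding ones, with no entry on chromosome 18 and none for pseudogenes, tRNA or snoRNA genes. Shares have 95% Wilson intervals and medians 95% order-statistic intervals, which cover counting error over peaks in 1 library and treat peaks as separate. No p-value was computed, since there is 1 library of values per genotype. The functions were tested on simulated peaks with known answers, and all 8 checks passed. Work used Python 3.11.15, pandas 2.3.3, scipy 1.17.1 and biopython 1.88.

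Named genes are Runx1, the 12 peaks with the highest −log10 q, genes that were the nearest gene of 2 KO specific peaks, members of the gene lists, the 3 widest, the 3 nearest to a WT peak and the 3 on each side of the limit. All other genes named were chosen after their values were seen. Comparisons of low peaks alone were added after seeing the data. The members and all lists were chosen with earlier results of these data known. Part of the check of marker genes is not reported here.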

Additional observations from a re-analysis of the deposited data

Results flagged for a closer look

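The list of KO specific peaks has an unlabelled last column that is filled in for some peaks. It was filled in for 14 of the 344 peaks near gene ends (4.07%, 95% Wilson interval 2.44 to 6.71%), for 1.91% (1.30 to 2.81%) of those elsewhere in genes and for 1.99% (1.28 to 3.09%) between genes. These intervals overlap. At gene starts 5 of 175 had it and at other ends 5 of 53. The genes nearest to the 14 included Areg, Cbx2, Abcc1, Slc27a4, Atp6v0a1, Zfp526, Gng11, Mrpl3 and H2-T23, with −log10 q from 14.9 at Mir6416 to 2.89 at H2-T23. The meaning of the column is not given in the sources used here, and no comparison above uses it.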

How the results depend on the processing

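Of 96 values computed under other settings, 23 moved past their counting interval or, for the number of peaks, past 1.5 times; the cause was not tested beyond the setting itself. The number of peaks was 235 within 500 bp and 505 within 2 kb, against 344. With gene ends within 500 bp, the KO specific share of KO peaks was 3.07%, the share at starts 86.8% and the share nearest protein-coding genes 69.8%. With 2 kb, the KO specific share was 4.78% and the median width 268 bp. With protein-coding genes alone, 227 peaks remained, 2.99% of KO peaks near gene ends, with 85.2% at starts. With −log10 q at or above the KO median, 21 peaks were left, 0.396% of KO peaks there, with a median −log10 q of 20.5, a median fold of 10.8 and a WT peak within 1 kb for 4.76%. With width at or above the KO median, 64 were left (1.09%), with medians of 8.81, 6.53 and 509.5 bp, 88.1% at starts and 67.2% protein coding. A WT peak lay within 1 kb for 6.67% when peaks with a WT peak within 500 bp were dropped, and within 500 bp and within 5 kb it was 8.43% and 33.4%. Moves of −log10 q under a limit on −log10 q, and of width under a limit on width, were fixed by the filter. The same holds for the share with a nearby WT peak when its distance was changed or close pairs were dropped. The motif shares of KO specific promoters stayed within their intervals with at least 200 bp of the window in the peak or with low peaks alone, both chosen after seeing the data. Low peaks held 110 of the 117 windows, and both sets lie within the 117. Staying within the interval was therefore likely beforehand and is no separate support. At 200 bp, 52 windows were left and 15.4% held the AP-1 letters. No paired analysis was possible because the lists hold values of 1 library per genotype; for the same reason no replicate could be left out.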
